A study of Homo sapiens with 9 samples.

Results

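The 9 genes described here encode the cohesin ring subunits SMC1A, SMC3, RAD21, STAG1 and STAG2, the ring-bound regulators PDS5A and PDS5B, the loader NIPBL and the release factor WAPL (also written WAPAL). They were taken as 9 of the 13407 genes that had at least 1 probe set measured above the low-signal filter. WAPL was chosen because 1 of its probe sets was higher in both TIG1-expressing lines than in control cells in earlier results of these same data, and its partners were chosen by function. WAPL values against control cells are therefore given as a description with no test. All probe sets annotated to the 9 genes were taken, 35 in all, of which 27 were kept and 8 were too dim to be tested. A probe set is a group of short probes designed to match 1 stretch of a gene's transcripts, so that several probe sets of a gene read different stretches.

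TIG1 (also called RARRES1) is a retinoid-inducible gene of which the isoforms TIG1A and TIG1B were expressed here. Total RNA from stable clones of HCT116, an established colon cancer cell line, was measured on 9 HG-U133 Plus 2.0 arrays, 3 each for TIG1A, TIG1B and Control stable cells. Every clone, the control included, carried the pSwitch plasmid, whose regulatory protein acts on its target promoter in the presence of mifepristone, together with the pGene/V5 vector holding TIG1A, TIG1B or no insert, and every clone received 5 nM mifepristone for 24 h. The submitters' design text gives the mifepristone as 5 micromolar. Each group was described as 1 stable clone, so a difference between clones and an effect of the induced isoform cannot be told apart. The design text calls the 3 samples of a group biological triplicates, and p-values measure only the spread between such samples of a clone.

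Cohesin is a ring of SMC1A, SMC3 and RAD21, bound by STAG1 or STAG2, that encloses DNA. It holds sister chromatids together from replication until anaphase and extrudes chromatin loops in interphase. NIPBL loads the ring and stimulates loop extrusion, whereas WAPL, acting together with PDS5A or PDS5B, opens the ring and releases it from chromatin. Mutations in STAG2 and other cohesin genes are known from several cancers, including those of the colon.

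The transcripts of RARRES1 were checked first. Probe set 206392_s_at gave an intensity of 62881 ± 4179 in TIG1A cells, 39336 ± 4496 in TIG1B cells and 4.24 ± 1.19 in control cells (SD, n = 3 each). Signal was high in both TIG1 lines and low in control cells, and it does not show which isoform a clone expressed. Probe set 221872_at of the same gene was below the array median on all 9 arrays. Array medians lay between 59.9 and 73.9. Of the 7 colon epithelial markers, EPCAM, CDH1, KRT8 and KRT18 were above the array median on 9 of 9 arrays, whereas CDX2 was above it on 8, LGALS4 on 6 and VIL1 on 3. Of 6 markers of leukocytes, endothelium and fibroblasts, PTPRC, CDH5 and COL1A2 had no kept probe set. The summed intensity of these 6 markers, each by its brightest probe set, was 1515 to 1823 in TIG1A cells, 1150 to 1188 in TIG1B cells and 693 to 1167 in control cells. The collagen gene COL1A1 carried most of that sum through its probe set 1556499_s_at, which differed by 1.48 on the log2 scale in TIG1A cells (adjusted p = 0.0169). The other kept probe sets of COL1A1 differed by -0.59 and -0.13 in TIG1A cells, that of CD3E by -0.81 and that of PECAM1 by -0.92, and none of these passed. Of the epithelial markers, CDH1 201131_s_at was higher in TIG1A cells by 0.59 (adjusted p = 0.0481), but CDH1 201130_s_at differed by 0.08 (adjusted p = 0.926). KRT8 differed by -0.59 in TIG1A cells with no overlap with control cells (adjusted p = 0.0759), and LGALS4 by -1.09 (adjusted p = 0.288). EPCAM, KRT18 and CDX2 206387_at differed by 0.05, 0.03 and 0.02, and VIL1 1554945_x_at by 1.30, and none of these passed. The part of these differences in the results for cohesin genes was not tested. A lower signal could come from fewer cells that express a gene or from less RNA per cell, which bulk RNA does not separate.

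Start regions are shown for WAPL, the gene chosen for its signal, and for PDS5A and NIPBL, the partners that had a probe set past the threshold in TIG1A cells. The stretch that runs from 250 bases before to 50 bases after the annotated start is given for each gene on its coding strand, from RefSeq on GRCh38.p14. Capitals mark matches on either strand to CCAAT (reverse complement ATTGG) and to the GC box GGGCGG (reverse complement CCGCCC), which share no overlap in these stretches. The WAPL stretch is chr10:86521743-86522042 on the minus strand, that of PDS5A is chr4:39977862-39978161 on the minus strand and that of NIPBL is chr5:36876519-36876818 on the plus strand.
WAPL: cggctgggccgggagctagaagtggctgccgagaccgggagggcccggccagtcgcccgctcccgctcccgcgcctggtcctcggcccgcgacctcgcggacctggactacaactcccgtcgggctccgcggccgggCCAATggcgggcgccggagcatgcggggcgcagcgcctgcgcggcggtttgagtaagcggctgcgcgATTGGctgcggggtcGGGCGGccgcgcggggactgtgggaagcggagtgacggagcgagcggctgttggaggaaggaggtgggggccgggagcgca
PDS5A: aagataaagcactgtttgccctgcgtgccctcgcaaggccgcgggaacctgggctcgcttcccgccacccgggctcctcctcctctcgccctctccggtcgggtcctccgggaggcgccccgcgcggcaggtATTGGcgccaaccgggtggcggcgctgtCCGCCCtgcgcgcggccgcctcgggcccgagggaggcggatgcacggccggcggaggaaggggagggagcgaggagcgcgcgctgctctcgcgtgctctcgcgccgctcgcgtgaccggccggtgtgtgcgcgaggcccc
NIPBL: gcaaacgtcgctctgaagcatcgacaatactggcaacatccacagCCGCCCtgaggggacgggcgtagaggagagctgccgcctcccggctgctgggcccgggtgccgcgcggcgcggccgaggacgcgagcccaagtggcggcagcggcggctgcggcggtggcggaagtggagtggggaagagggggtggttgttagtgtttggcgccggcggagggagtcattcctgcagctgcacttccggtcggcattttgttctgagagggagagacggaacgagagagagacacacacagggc
WAPL had 2 matches to CCAAT and 1 to the GC box, PDS5A had 1 of each, and NIPBL had 1 match to the GC box and 0 to CCAAT. Of 35116 human stretches of the same length, 34.6% held CCAAT and 45% held the GC box. These matches are a description of the letters in the stretch. In all, 8 of the 9 genes were matched to start regions, and RAD21 is named only.

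WAPL, the release factor, was read by 4 probe sets, and they did not move together. Probe set 217218_at gave intensities of 187, 154 and 145 in TIG1A cells, 109, 141 and 153 in TIG1B cells and 9.75, 22.9 and 9.49 in control cells. All 6 arrays of the TIG1 lines were above all 3 control arrays, and all 3 control values were below the median of their own array. The control level is therefore only a bound, and 217218_at was at least 2.24-fold higher in TIG1A cells and at least 1.85-fold higher in TIG1B cells when the control was set at its array medians. These are the values that chose the gene. The fitted log2 differences were 3.65 in TIG1A cells and 3.37 in TIG1B cells, and after an offset of 50 was added to each intensity they were 1.73 and 1.52, so their size depended on how dim signals were treated. This was the only kept probe set of the 27 that passed the filter on low signal through the TIG1 lines alone.

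The other 3 WAPL probe sets were bright on every array. Probe set 212264_s_at read 2757, 2907 and 2845 in TIG1A cells, 2663, 2728 and 2793 in TIG1B cells and 2097, 2888 and 2997 in control cells. Both lines lay within the range of the control arrays, with log2 differences of 0.11 ± 0.16 in TIG1A cells and 0.05 ± 0.16 in TIG1B cells (SE). Without Control replicate 1, the lowest of the control arrays, the differences turned to -0.05 and -0.11.

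Probe set 1554441_a_at, whose suffix marks probes shared by alternative transcripts of 1 gene, read 1917, 2016 and 1781 in TIG1A cells, 1755, 1560 and 1786 in TIG1B cells and 1521, 2137 and 2369 in control cells. Control replicate 1 was again the lowest control array, and neither line separated from control cells (log2 differences of -0.05 ± 0.18 in TIG1A cells and -0.22 ± 0.18 in TIG1B cells). Probe set 212267_at read 1755, 1917 and 1656 in TIG1A cells, 1387, 1780 and 1862 in TIG1B cells and 1719, 1430 and 1536 in control cells. Here Control replicate 1 was the highest control array, and the log2 differences were 0.19 ± 0.16 in TIG1A cells and 0.09 ± 0.16 in TIG1B cells.

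**Figure D1:**
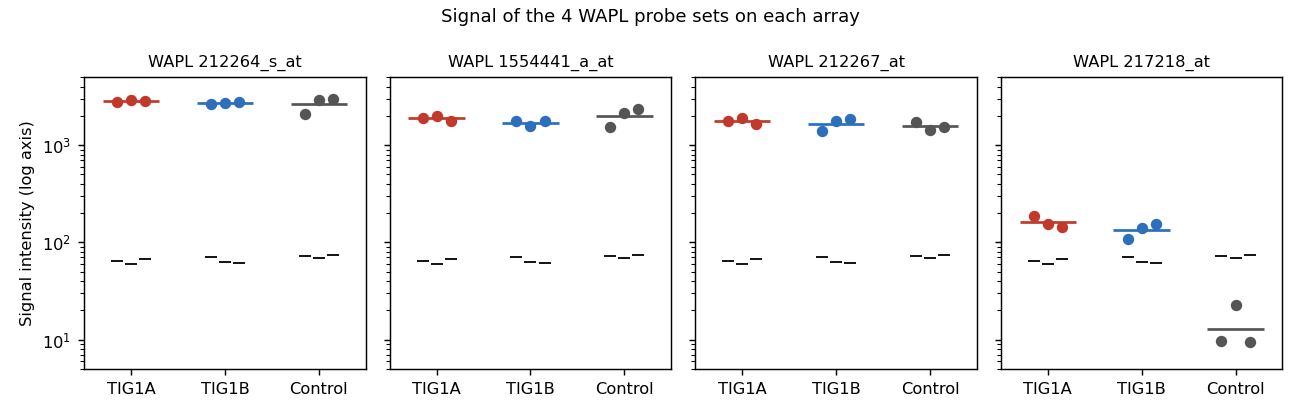
Signal intensity (log axis) of the 4 WAPL probe sets on each of the 3 TIG1A, 3 TIG1B and 3 Control arrays. Points are arrays, coloured lines are geometric means and short black dashes are array medians. On 217218_at the control arrays lie at 9.49 to 22.9, below their array medians, and the TIG1 lines at 109 to 187, whereas on the other 3 probe sets the groups overlap.

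The signal of 217218_at was also set against the mean of the other 3 WAPL probe sets on the same array, with signals below an array median raised to it, so that the values are lower bounds. Relative to the control mean it was higher by at least 1.08 log2 units in TIG1A cells (0.94 to 1.31) and by at least 0.91 in TIG1B cells (0.71 to 1.03). These values come from the signals that chose the gene and are a description. Over the 9 arrays, the log2 signal of 217218_at had a Pearson correlation of 0.35 with 212264_s_at, of -0.25 with 1554441_a_at and of 0.42 with 212267_at, whereas 212264_s_at and 1554441_a_at correlated at 0.73. The 9 points share 3 clones, and the correlations are given as a description. Between TIG1A and TIG1B cells, no WAPL probe set passed the test. For 217218_at the difference was 0.28 ± 0.34 on the log2 scale, with a 95% interval from -0.52 to 1.07 (adjusted p = 0.792).

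By Pearson correlation of log2 signal over the 9 arrays, with the control values of 217218_at below the array medians, the 5 most similar probe sets of other genes belonged to TBC1D30 (0.991), ABHD17B (0.982), FAM76B, LSM4 and RPS21 (0.979 each). Probe set 213912_at of TBC1D30 read 1747, 1689 and 1492 in TIG1A cells, 1536, 1480 and 1523 in TIG1B cells and 717, 849 and 641 in control cells. It was above the array median on every array. LSM4 212924_s_at, like 217218_at, was below the array median on all 3 control arrays, with 146, 184 and 203 in TIG1A cells, 98.8, 177 and 127 in TIG1B cells and 18.8, 28.9 and 19.2 in control cells.

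Among the 23 kept probe sets of the 8 partners, 2 passed an adjusted p of 0.05 in TIG1A cells against control cells, both higher, where 6.06% of the 29977 probe sets tested passed and 2.86% passed as higher. They were PDS5A 212140_at and NIPBL 212483_at. In TIG1B cells against control cells 0 of the 23 passed in limma, where 1.78% of all probe sets passed. Between TIG1A and TIG1B cells 0 of the 27 probe sets of all 9 genes passed, where 0.417% of all probe sets passed. An unadjusted p under 0.05 was reached by 8 partner probe sets in TIG1A cells, by 2 in TIG1B cells and by 4 between the lines. The methods' t-test gave 8, 4 and 6 in the same order and 0 in each after Benjamini-Hochberg. The share of all probe sets at these unadjusted thresholds was not counted, so these counts have no background and are no result about the partners.

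The partners had a median log2 difference of -0.14 in TIG1A cells and one of 0.06 in TIG1B cells, against medians over all probe sets of -0.04 in TIG1A cells and -0.03 in TIG1B cells. With each array centred on its median the partners' medians were 0.03 in TIG1A cells and 0.21 in TIG1B cells, and the median over all probe sets was 0.12 in both lines, so the sign of the TIG1A value depended on the scaling. Between TIG1A and TIG1B cells the partners had a median of -0.23, which was -0.20 to -0.23 under the scalings tried, against a median of 0 over all probe sets. Of the 23 probe sets, 16 differed from control cells by less than 0.5 log2 units in TIG1A cells, and 21 did so in TIG1B cells. Groups did not overlap for 12 of the 23 in TIG1A cells, 4 higher and 8 lower, where 30.7% of all probe sets did not overlap. In TIG1B cells 6 did not overlap, 3 in each direction, where the share over all probe sets was 24.9%. Between TIG1A and TIG1B cells 10 did not overlap, 2 higher and 8 lower in TIG1A cells, where the share was 24.1%.

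**Figure D2:**
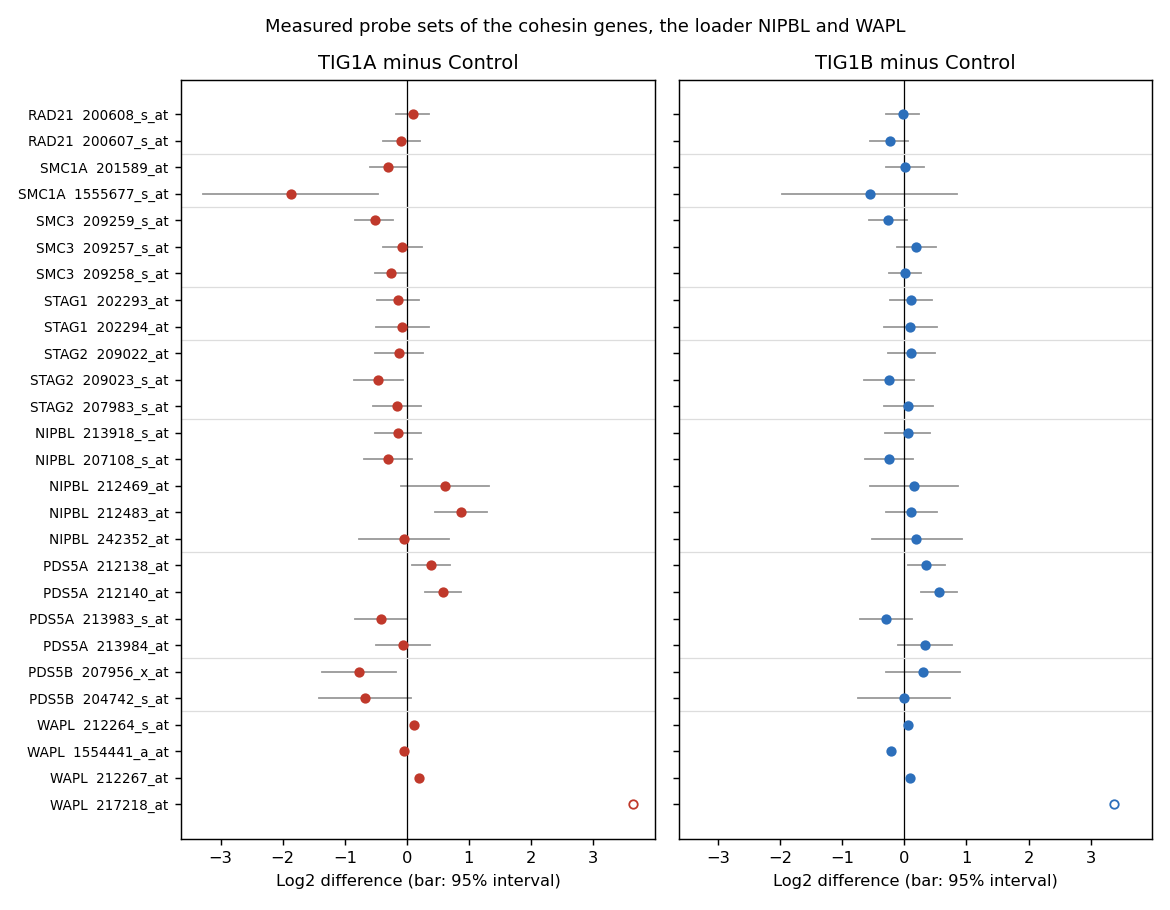
Log2 difference from control cells (horizontal axis) for the 27 kept probe sets, with TIG1A cells in the left panel and TIG1B cells in the right panel. Points are fitted differences and bars are 95% intervals for the partners. WAPL points carry no bar, and the open points mark 217218_at, at 3.65 and 3.37 against control signals below the array medians. In all, 21 of the 23 partner probe sets lie within 0.5 of 0 in TIG1B cells.

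RAD21 encodes the subunit that closes the ring and is cut by separase at anaphase, and its transcript level differed little among the clones. Probe set 200608_s_at read 11820, 11482 and 12120 in TIG1A cells, 10134, 11325 and 11134 in TIG1B cells and 11151, 10995 and 10974 in control cells. The TIG1A arrays were all above the control arrays, but by only 0.10 ± 0.12 on the log2 scale (adjusted p = 0.637). On 200607_s_at the difference was -0.09 ± 0.13 in TIG1A cells (adjusted p = 0.699) and -0.24 ± 0.13 in TIG1B cells (adjusted p = 0.362). The 95% intervals of both probe sets in both lines lay between -0.55 and 0.36.

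SMC1A and SMC3, the ATPase arms of the ring, had no probe set past the threshold, although 1 of them, SMC3 209259_s_at, passed under 4 of the alternative settings. SMC3 209259_s_at read 1962, 2275 and 2272 in TIG1A cells, 2343, 2779 and 2655 in TIG1B cells and 3104, 3189 and 3043 in control cells. The 3 groups did not overlap, with TIG1A cells lowest and control cells highest. The log2 difference was -0.52 ± 0.13 in TIG1A cells (adjusted p = 0.058) and -0.27 ± 0.13 in TIG1B cells (adjusted p = 0.327). In TIG1A cells the adjusted p was 0.047 after quantile normalisation, 0.049 with an offset of 50, 0.014 with a filter at the 75th percentile and 0.0149 with a trended and robust variance, and it reached 0.246 without a filter. SMC3 209258_s_at read 835, 886 and 876 in TIG1A cells, 1023, 1080 and 1021 in TIG1B cells and 1034, 1051 and 1025 in control cells. TIG1A arrays were below all the others, by -0.26 ± 0.11 log2 units against control cells (adjusted p = 0.197) and -0.27 ± 0.11 against TIG1B cells (adjusted p = 0.363). On 209257_s_at the differences from control cells were -0.08 in TIG1A cells and 0.19 in TIG1B cells. The fourth, 1556925_at, was too dim to be tested.

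SMC1A 201589_at read 4127, 4499 and 4089 in TIG1A cells, 5128, 5426 and 5145 in TIG1B cells and 4606, 5661 and 5418 in control cells. TIG1A cells were the lowest group, by -0.30 ± 0.13 log2 units against control cells (adjusted p = 0.206) and by -0.30 ± 0.13 against TIG1B cells (adjusted p = 0.376). The dim probe set 1555677_s_at read 25.3, 79.4 and 117 in TIG1A cells, 86.3, 201 and 207 in TIG1B cells and 153, 232 and 325 in control cells. TIG1A cells were again lowest, by -1.87 ± 0.61 on the log2 scale with a 95% interval from -3.29 to -0.46 (adjusted p = 0.109), and this difference passed with a replicate block and with a trended and robust variance. The remaining 2 SMC1A probe sets were not kept.

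STAG1 and STAG2 encode the alternative subunits through which cohesin meets CTCF and other partners. STAG1 202293_at and 202294_at differed from control cells by -0.14 and -0.07 log2 units in TIG1A cells and by 0.11 and 0.09 in TIG1B cells, and the remaining STAG1 probe set was below the array median on all 9 arrays. STAG2 209023_s_at read 1094, 1305 and 1224 in TIG1A cells, 1113, 1543 and 1560 in TIG1B cells and 1764, 1685 and 1516 in control cells. TIG1A arrays were all below the control arrays, and TIG1B arrays overlapped them. The log2 difference was -0.46 ± 0.17 in TIG1A cells (adjusted p = 0.152), while 209022_at and 207983_s_at gave -0.13 and -0.16. In TIG1B cells the 3 STAG2 probe sets gave -0.25, 0.11 and 0.06 in the same order (adjusted p = 0.479, 0.759 and 0.87).

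PDS5A, which binds the ring and works both with WAPL in release and with acetylated cohesin in cohesion, had 4 kept probe sets that did not move alike. Probe set 212140_at read 3130, 3595 and 3404 in TIG1A cells, 3224, 3500 and 3231 in TIG1B cells and 2383, 2076 and 2317 in control cells. All 6 arrays of the TIG1 lines were above all control arrays. The log2 difference was 0.58 ± 0.13 in TIG1A cells (adjusted p = 0.0406) and 0.56 ± 0.13 in TIG1B cells (adjusted p = 0.0771), and TIG1A and TIG1B cells differed by 0.02 ± 0.13 (adjusted p = 0.961, 95% interval from -0.27 to 0.32). The call in TIG1A cells was lost when any array other than Control replicate 1 was left out (adjusted p of 0.054 to 0.126), while the difference stayed between 0.52 and 0.63. In TIG1B cells it passed with a filter at the 75th percentile and with a trended and robust variance.

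The brighter PDS5A probe set 212138_at read 6957, 7785 and 7513 in TIG1A cells, 6729, 7557 and 7384 in TIG1B cells and 5861, 5112 and 6030 in control cells. Both lines were above control cells on every array, by 0.39 ± 0.13 log2 units in TIG1A cells (adjusted p = 0.115) and 0.35 ± 0.13 in TIG1B cells (adjusted p = 0.209). In the opposite direction, 213983_s_at read 1226, 1063 and 846 in TIG1A cells, 1251, 1219 and 951 in TIG1B cells and 1418, 1313 and 1417 in control cells. Both lines were below control cells on every array, by -0.42 ± 0.18 in TIG1A cells (adjusted p = 0.2) and -0.29 ± 0.18 in TIG1B cells (adjusted p = 0.44). Relative to the mean of the other 3 PDS5A probe sets on the same array, 212140_at was shifted by 0.61 ± 0.14 in TIG1A cells and 0.42 ± 0.06 in TIG1B cells, and 213983_s_at by -0.72 ± 0.30 in TIG1A cells and -0.70 ± 0.31 in TIG1B cells (log2, SD, n = 3 each), with no overlap with control cells. The fourth probe set, 213984_at, read 403 to 466 in TIG1A cells, 435 to 651 in TIG1B cells and 413 to 504 in control cells.

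**Figure D3:**
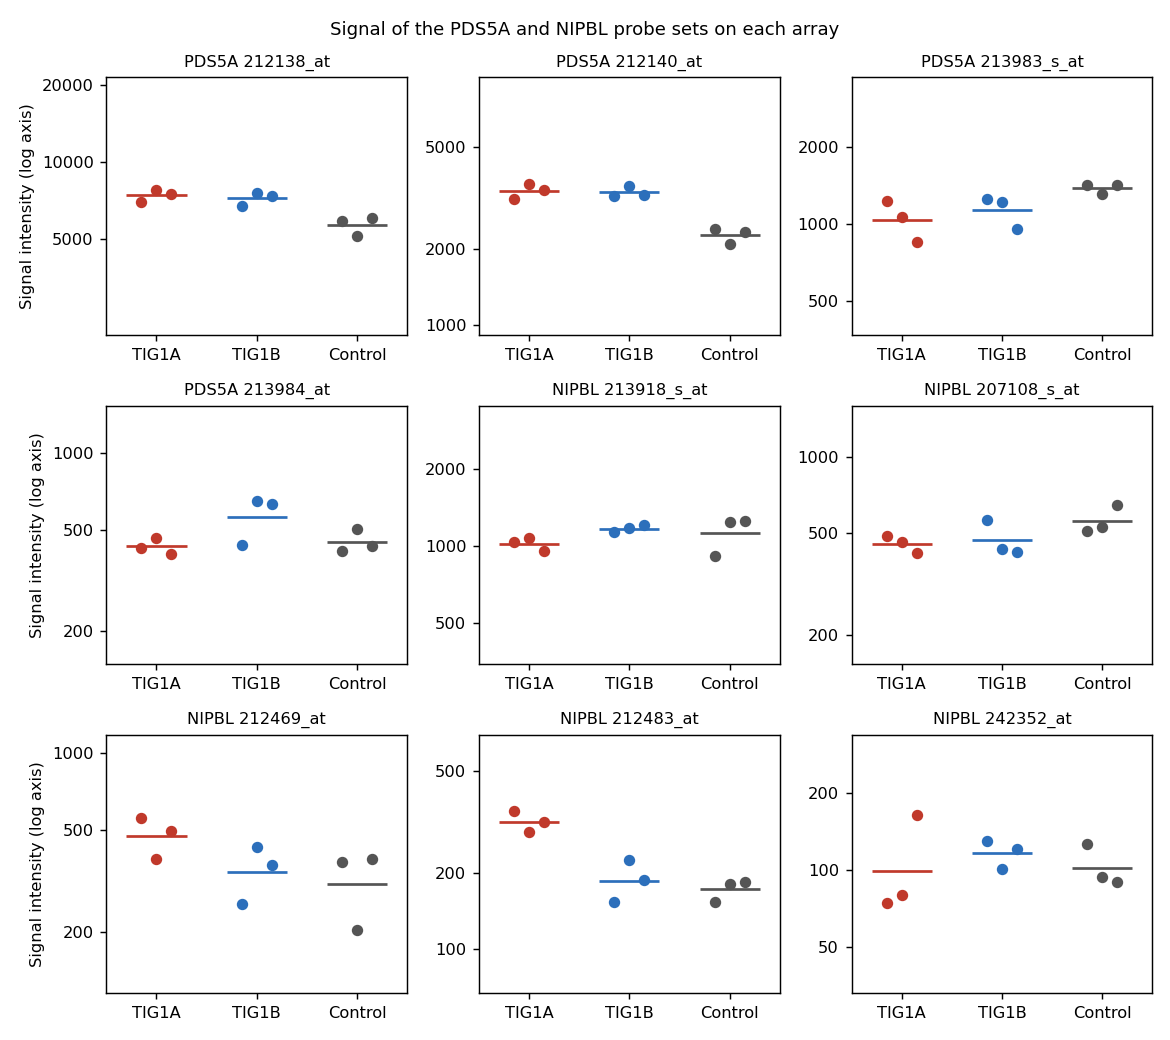
Signal intensity (log axes, each spanning the same ratio) of the 4 PDS5A and 5 NIPBL probe sets on each array. Points are arrays and lines are geometric means of 3 arrays. On PDS5A 212140_at the TIG1 lines lie at 3130 to 3595 and control cells at 2076 to 2383, and on NIPBL 212483_at the TIG1A arrays, at 288 to 348, stand above the TIG1B and Control arrays.

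NIPBL, the loader, had 5 kept probe sets, of which 1 passed in TIG1A cells. Probe set 212483_at read 348, 288 and 315 in TIG1A cells, 153, 225 and 187 in TIG1B cells and 154, 180 and 184 in control cells. All TIG1A arrays were above those of the other groups, and TIG1B cells overlapped control cells. The log2 difference was 0.88 ± 0.18 in TIG1A cells (adjusted p = 0.0339) and 0.11 ± 0.18 in TIG1B cells (adjusted p = 0.775). The difference between TIG1A and TIG1B cells, 0.76 ± 0.18, did not pass (adjusted p = 0.141). The call in TIG1A cells was lost without any 1 of the TIG1A arrays, without TIG1B replicate 3 and without Control replicates 2 or 3 (adjusted p of 0.0589 to 0.0958), with differences of 0.79 to 0.94.

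The other NIPBL probe sets gave no such value. Probe set 212469_at read 556, 383 and 496 in TIG1A cells, 257, 429 and 365 in TIG1B cells and 374, 203 and 383 in control cells, and the groups touched (0.62 ± 0.31 in TIG1A cells, adjusted p = 0.255). The brightest, 213918_s_at, differed by -0.14 in TIG1A cells and 0.06 in TIG1B cells. Probe set 207108_s_at differed by -0.30 in TIG1A cells and -0.25 in TIG1B cells, and 242352_at by -0.04 in TIG1A cells and 0.19 in TIG1B cells. Relative to the other 4 NIPBL probe sets on the same array, 212483_at was shifted by 0.84 ± 0.15 log2 units in TIG1A cells and 0.07 ± 0.27 in TIG1B cells.

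PDS5B, the paralogue of PDS5A, had 2 kept probe sets and 4 that were too dim. Probe set 207956_x_at, whose suffix marks probes that may also match other transcripts, read 343, 657 and 601 in TIG1A cells, 882, 1165 and 1208 in TIG1B cells and 843, 869 and 911 in control cells. TIG1A arrays were below all the others. The log2 difference was -0.77 ± 0.26 in TIG1A cells against control cells (adjusted p = 0.118) and -1.07 ± 0.26 in TIG1A against TIG1B cells (adjusted p = 0.151). TIG1A replicate 1 was the lowest array, and without 1 array at a time the TIG1A minus Control difference ranged from -0.95 to -0.48. The second probe set, 204742_s_at, lay near the array medians and gave -0.67 ± 0.32 in TIG1A cells (adjusted p = 0.239) and -0.01 ± 0.32 in TIG1B cells (adjusted p = 0.989).

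The genes that act on cohesin through the cell cycle were then described from lists drawn up by function. Cohesion is established in S phase by the acetyltransferases ESCO1 and ESCO2 and by replication fork proteins. It is then protected by sororin and shugoshin. Of 22 kept probe sets of the 11 establishment genes, 17 lay below control cells and 5 above in TIG1A cells, and 2 passed the test, both lower, where 3.2% of all probe sets passed as lower. The list had a median log2 difference of -0.48 in TIG1A cells and -0.08 in TIG1B cells. CDCA5 (sororin), which counteracts WAPL at the ring, read 1721, 1302 and 1264 in TIG1A cells, 3533, 2787 and 2683 in TIG1B cells and 2342, 3523 and 2819 in control cells. TIG1A arrays were below all the others, by -1.01 ± 0.21 log2 units against control cells (adjusted p = 0.0363), and the difference from TIG1B cells, -1.07 ± 0.21, did not pass (adjusted p = 0.101). The helicase DDX11 had 4 kept probe sets, with log2 differences of -0.83, -0.79, -0.79 and -0.64 in TIG1A cells, of which only the last passed. This was 208159_x_at, which averaged 739 ± 74.7 in TIG1A cells, 1009 ± 27.1 in TIG1B cells and 1149 ± 130 in control cells (adjusted p = 0.0438 for TIG1A cells). Its suffix marks probes that may also match other transcripts. The call was lost on leaving out 8 of the 9 arrays in turn and with a replicate block in limma (adjusted p = 0.0914).

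Among 7 genes for the protection and cleavage of cohesin, 8 of 11 kept probe sets lay below control cells in TIG1A cells and 3 of them passed, against 3.2% of all probe sets, with a list median of -0.39 in TIG1A cells and -0.17 in TIG1B cells. PLK1, the mitotic kinase that strips cohesin from chromosome arms, read 1595, 1548 and 1446 in TIG1A cells, 1826, 1833 and 1896 in TIG1B cells and 2401, 2855 and 2718 in control cells. The 3 groups did not overlap, and the log2 difference was -0.79 ± 0.12 in TIG1A cells (adjusted p = 0.0175) and -0.52 ± 0.12 in TIG1B cells (adjusted p = 0.0863). ESPL1 (separase), the protease that cuts RAD21, fell on both its probe sets in TIG1A cells, by -0.78 ± 0.13 on 38158_at (adjusted p = 0.0219) and -0.63 ± 0.13 on 204817_at (adjusted p = 0.0386). In TIG1B cells the same probe sets gave -0.54 (adjusted p = 0.0928) and -0.66 (adjusted p = 0.0579). PTTG1 (securin), the inhibitor of separase, differed by 0.17 in TIG1A cells and 0.28 in TIG1B cells and did not pass.

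Condensin, the related complex that compacts mitotic chromosomes, had 14 of 16 kept probe sets below control cells in TIG1A cells. Those that passed, against 3.2% of all probe sets, were NCAPD2 201774_s_at (-0.59 ± 0.13, adjusted p = 0.0392) and NCAPG 218663_at (-0.59 ± 0.13, adjusted p = 0.0438), and the list had a median of -0.51 in TIG1A cells and -0.03 in TIG1B cells. A second NCAPG probe set, 218662_s_at, differed by 0.00 in TIG1A cells. Of the 11 kept probe sets of the SMC5/6 complex, which acts in DNA repair, 5 lay below control cells and 6 above in TIG1A cells. NSMCE4A 211376_s_at rose, where 2.86% of all probe sets did (6836 ± 298 in TIG1A cells, 5315 ± 172 in TIG1B cells and 4066 ± 590 in control cells, adjusted p = 0.0293 for TIG1A cells), with a list median of 0.02. The other kept NSMCE4A probe sets did not pass, with log2 differences of 0.51, 0.1 and 0.09 in TIG1A cells. The 211376_s_at call was lost on leaving out 6 of the 9 arrays in turn and with a replicate block in limma (adjusted p = 0.0591). None of the 4 probe sets of the NIPBL partner MAU2 and of CTCF passed, nor did REC8 and STAG3 of the meiotic ring. In limma 0 of the 66 kept probe sets of these lists passed in TIG1B cells, against 1.78% of all probe sets, and 9 had an unadjusted p under 0.05. Between TIG1A and TIG1B cells 0 passed, against 0.417%, and 15 had an unadjusted p under 0.05. The share of all probe sets at that unadjusted threshold was not counted, so the counts of 9 and 15 have no background. With each array centred on its median, 0 of the 7 lower probe sets of the lists passed in TIG1A cells (adjusted p of 0.0554 to 0.167). With a replicate block 0 of the 7 passed either. Each of these calls was lost on leaving out at least 3 of the 9 arrays in turn (adjusted p of up to 0.13). TIG1A replicates 2 and 3 and Control replicate 2 were among those arrays in every case.

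**Figure D4:**
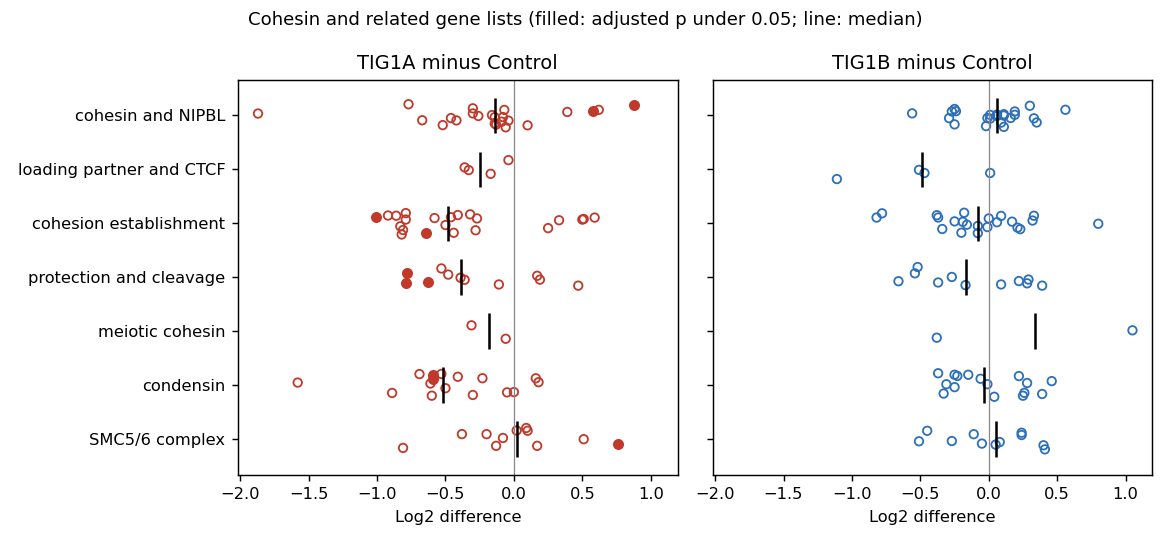
Log2 difference from control cells for each kept probe set of the cohesin partners and of 6 related lists, with TIG1A cells in the left panel and TIG1B cells in the right panel. Filled points passed an adjusted p of 0.05, open points did not and black lines are medians. In TIG1A cells the medians of cohesion establishment (-0.48), protection and cleavage (-0.39) and condensin (-0.51) lie left of that of the cohesin partners (-0.14), and no filled point appears in TIG1B cells.

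To describe the surroundings of the genes, each was set beside its 20 measured neighbours, 10 on each side, by the brightest kept probe set per gene. The neighbours of WAPL had a median log2 difference of 0.37 in TIG1A cells, 17 higher and 3 lower, and 4 of them rose past the threshold (PRXL2A, LDB3, ADIRF and MINPP1), where 2.86% of all probe sets did. The brightest WAPL probe set lay below that median, at 0.11. In TIG1B cells the neighbours' median was 0.11 and WAPL itself stood at 0.05, and PRXL2A again rose past the threshold (0.91, adjusted p = 0.0388), where 1.78% of all probe sets passed in either direction. The neighbours of RAD21 had a median of 0.21 in TIG1A cells and 0.04 in TIG1B cells, with 4 past the threshold in TIG1A cells (EMC2, EBAG9, EIF3H and EXT1), all higher, against the same 2.86%. RAD21 itself, at 0.10, was below that median too. For PDS5A the neighbours had a median of 0.07 in TIG1A cells and 0.08 in TIG1B cells, and PDS5A stood at 0.39 in TIG1A cells and 0.35 in TIG1B cells. PDS5B stood at -0.77 in TIG1A cells, where its neighbours had a median of -0.02. The shares given are over all kept probe sets, whereas each neighbour was read by its brightest kept probe set alone. The share over brightest probe sets was not counted. The part of neighbouring stretches in these differences was not tested.

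**Figure D5:**
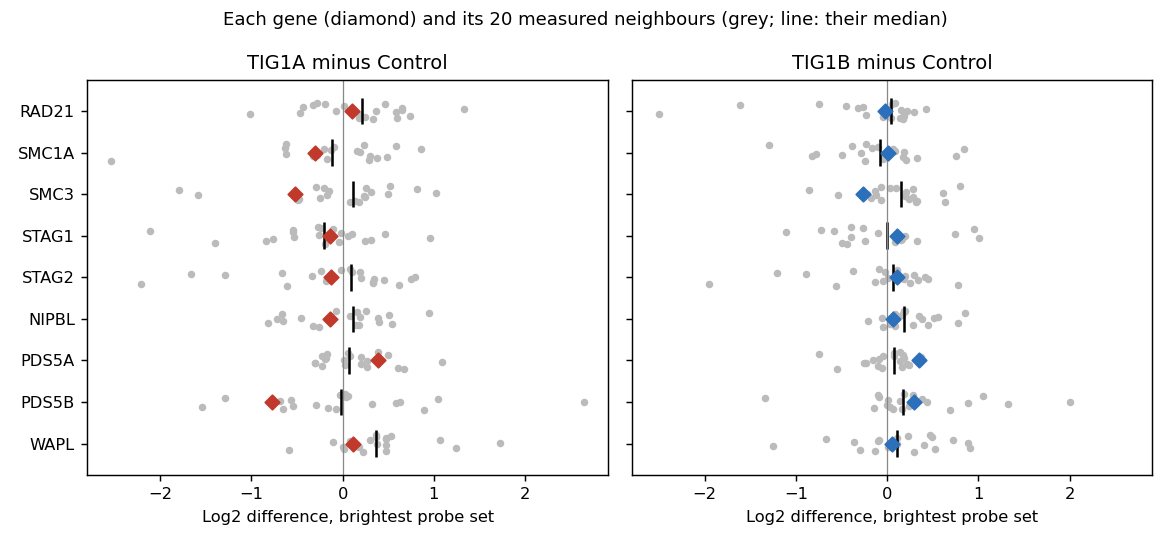
Log2 difference from control cells of each of the 9 genes (diamond, brightest kept probe set) and of its 20 nearest measured genes (grey points, with their median as a black line), for TIG1A cells (left) and TIG1B cells (right). The neighbours of WAPL have the highest median in TIG1A cells, 0.37, with WAPL itself at 0.11.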

How the data were processed

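Total RNA of 9 samples was hybridised to Affymetrix arrays, and the authors computed the signal intensity of each probe set with the GeneChip Operating System and global scaling, as deposited on a linear scale. The number of arrays, 3 per group, limits the precision. Intensities were floored at 1 before log2 values were taken. To be tested, a probe set had to reach the array median (50th percentile) on at least 2 arrays of 1 group, which left 29977 of 54675, after 62 array controls were removed. The differences were fitted over all 9 arrays with limma 3.58.1 in R 4.3.3 (lmFit and eBayes) and adjusted by Benjamini-Hochberg over all kept probe sets. The fit was tested on simulated data. Gene names came from the platform annotation, updated through RefSeq (41043 of 41097 probe sets with 1 symbol matched). The probe sets without exactly 1 symbol, 1801 with several and 11777 with none, were not named. All kept probe sets of the members were named, with list members past the threshold (at most 4 a list) and the genes of the 5 most similar probe sets. Of the 10 neighbours on each side, those past the threshold around WAPL and RAD21 were named. PTTG1, MAU2, CTCF, REC8, STAG3, the second NCAPG probe set, PRXL2A, LDB3, ADIRF, MINPP1, EMC2, EBAG9, EIF3H and EXT1 were named after their values were seen. Members and lists were chosen with earlier results of these data known. Other scalings, offsets, filters, a replicate block, the methods' t-test and the omission of each array were tried. Probe sequences were not used here.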

Additional observations from a re-analysis of the deposited data

How the results depend on the processing

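The counts of members in this paragraph cover the partners and leave out WAPL, which was chosen by its difference from control cells. In TIG1A cells against control cells 2 of the 23 partner probe sets passed, both higher. Over all 29977 probe sets 858 passed as higher and 960 as lower. After quantile normalisation (995 higher and 889 lower over all) 3 partner probe sets passed. An offset of 50 (1249 higher and 1496 lower over all) also gave 3, and both settings added SMC3 209259_s_at as lower. After median centring 2 passed (1274 higher and 357 lower over all). With a filter at the 75th percentile 4 of 19 passed, 2 higher and 2 lower. Of all 14825 probe sets tested there, 1742 passed as higher and 1859 as lower. With a replicate block it was 1, with PDS5A 212140_at and NIPBL 212483_at lost and SMC1A 1555677_s_at gained as lower. It was 1 without a filter on low signal, 7 with a trended and robust variance (4 higher), 1 in a fit of only the 6 arrays compared, and 9 in the methods' t-test at an unadjusted threshold (5 higher), which became 0 after Benjamini-Hochberg. Leaving out 1 array at a time gave 1 to 3. In TIG1B cells against control cells 0 of the 23 passed. With the 75th percentile filter 1 did, PDS5A 212140_at, where 717 of all probe sets passed as higher and 1077 as lower. The trended and robust variance gave the same 1 (685 higher and 878 lower over all). The count was 0 without the filter, with the replicate block, in the fit of 6 arrays and on leaving out each array. The methods' t-test gave 4, and 0 after its adjustment. Between TIG1A and TIG1B cells the count of 0 became 1 with the 75th percentile filter (371 higher and 305 lower over all). It was also 1 with the trended and robust variance (321 higher and 277 lower over all), PDS5B 207956_x_at as lower both times. The methods' t-test gave 6 between the lines. Same-numbered samples of different groups had correlations of deviations between -0.04 and 0.19, the highest for TIG1A replicate 1 with TIG1B replicate 1. The labels give only a replicate number, and these values cannot show whether same-numbered samples were handled together. With the replicate block, all probe sets past the threshold numbered 336 higher and 301 lower in TIG1A cells, 1 higher and 1 lower in TIG1B cells and 0 between the lines, against 858 higher and 960 lower, 210 higher and 325 lower, and 83 higher and 42 lower without it.

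Of 606 alternative values for single probe sets, 556 kept direction and side of the threshold, 23 lost a call, 12 gained one and 15 changed sign. The 606 include WAPL against control cells in both lines, with the probe set that chose the gene. Whether that probe set kept or lost a call against control cells is a description and no test. Median centring turned RAD21 200608_s_at to 0.12 in TIG1B cells, and STAG1 202293_at to 0.02, STAG2 209022_at to 0.04 and NIPBL 213918_s_at to 0.03 in TIG1A cells. Quantile normalisation turned SMC1A 201589_at to -0.02 in TIG1B cells. Leaving out 1 array at a time spread TIG1B minus Control from -0.06 to 0.02 for RAD21 200608_s_at, -0.08 to 0.07 for SMC1A 201589_at, -0.02 to 0.2 for STAG2 209022_at, -0.09 to 0.13 for NIPBL 213918_s_at, -0.03 to 0.25 for NIPBL 212483_at and -0.11 to 0.15 for WAPL 212264_s_at. It spread TIG1A minus Control from -0.05 to 0.2 for WAPL 212264_s_at, and TIG1A minus TIG1B from -0.01 to 0.08 for PDS5A 212138_at and -0.02 to 0.08 for PDS5A 212140_at. The cause was not tested. The 3 arrays a group and signals near the array medians limit what can be told for dim probe sets.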
